A study of Mus musculus with 4 samples.

Results

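The genes described here belong to the insulin-like growth factor (IGF) system: the ligand gene Igf1, the receptor genes Igf1r and Igf2r, and the binding protein genes Igfbp2, Igfbp3, Igfbp4, Igfbp5, Igfbp6 and Igfbp7. These 9 genes were taken by symbol from the 32285 genes of the count tables, and all 9 were found there. They had been picked with their counts by library and cell class in these data already known. Their levels are therefore given as a description, with no test.

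The cells came from digits of wild-type FVB/NJ mice, an inbred strain, given as 8 weeks old. One group of digits was unamputated. The others had been amputated through P2, the middle phalanx, a level described by the submitters as not regenerating, and were collected at 12, 17 or 28 days post-amputation (dpa). No transgene, allele or added agent is named for any of the 4 libraries, and the number of animals pooled into each is not given in the sources used here. The tissue was digested with trypsin and collagenase I, and live cells were sorted by exclusion of propidium iodide before droplet capture. Transcripts were read at their 3′ end and counted as unique molecular identifiers (UMIs), which stand for captured RNA molecules. There was 1 library per group, so no difference below has a replicate check, and intervals cover counting error only.

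The deposited tables held 50625 cell barcodes, and 35039 cells were kept after filtering: 10438 from unamputated digits, 6491 from 12 dpa, 7938 from 17 dpa and 10172 from 28 dpa. The total UMIs per library lay between 92313847 and 197140774, and the median UMIs per kept cell fell between 6651 (28 dpa) and 11637.5 (unamputated). The labels describe pooled sexes, but each library held cells of almost 1 sex. Cells with at least 2 UMIs of Y-linked genes and none of Xist numbered 8127 in the unamputated library, 0 at 12 dpa, 4633 at 17 dpa and 4784 at 28 dpa. Cells with at least 2 UMIs of Xist and none of Y-linked genes numbered 1, 3519, 0 and 0 in the same order. At 12 dpa, time after amputation and sex cannot be told apart. Among the kept cells, 136 distinct barcodes occurred in more than 1 library. They were carried by 88 cells of the unamputated library, 41 at 12 dpa, 64 at 17 dpa and 80 at 28 dpa. Cells were grouped into 18 named classes from marker genes, and between 3.78% and 6.56% of each library's cells stayed unnamed.

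IGF-1 and IGF-2 are secreted peptides that drive growth, survival and matrix production by binding the tyrosine kinase receptor encoded by Igf1r. The receptor encoded by Igf2r, which also carries mannose 6-phosphate ligands to lysosomes, binds and clears IGF-2. IGF binding proteins hold most extracellular IGF, keep it from the receptor or carry it to the matrix, and release it when proteases cut them. IGFBP-6 prefers IGF-2 over IGF-1, and IGFBP-7 is a relative with low affinity for IGFs that is a common product of vessel walls. In connective tissue the fibroblast lineage makes much of the local IGF-1.

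Promoter sequences are shown for the 5 members with the highest mean 3′ UMI counts in fibroblast-like cells, not scaled by transcript length, so that their start regions can be compared. Each is the 150 bases before a RefSeq transcription start on GRCm38.p6, in the direction of the gene. Motif matches are in capitals, for the TATA box (TATAAA, or TTTATA on the other strand), the CCAAT box (CCAAT or ATTGG) and the GC box (GGGCGG or CCGCCC).
Igf1, chr10:87860961-87861110, plus strand: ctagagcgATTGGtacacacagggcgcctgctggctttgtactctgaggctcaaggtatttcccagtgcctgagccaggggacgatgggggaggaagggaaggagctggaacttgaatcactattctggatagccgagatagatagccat
Igfbp4, chr11:99041094-99041243, plus strand: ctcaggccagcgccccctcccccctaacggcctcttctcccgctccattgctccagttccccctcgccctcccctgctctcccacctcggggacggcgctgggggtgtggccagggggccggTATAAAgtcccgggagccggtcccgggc
Igfbp5, chr1:72874866-72875015, minus strand: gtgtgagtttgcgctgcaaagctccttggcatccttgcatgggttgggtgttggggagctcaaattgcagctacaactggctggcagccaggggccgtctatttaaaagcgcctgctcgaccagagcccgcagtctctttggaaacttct
Igfbp6, chr15:102144036-102144185, plus strand: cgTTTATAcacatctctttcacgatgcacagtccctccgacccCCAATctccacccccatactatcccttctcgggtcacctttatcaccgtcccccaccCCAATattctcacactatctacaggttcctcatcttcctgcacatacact
Igfbp7, chr5:77408046-77408195, minus strand: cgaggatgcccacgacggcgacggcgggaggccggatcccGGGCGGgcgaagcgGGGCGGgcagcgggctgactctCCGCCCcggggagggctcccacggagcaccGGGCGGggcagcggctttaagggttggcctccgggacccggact
The Igfbp4 window holds a TATAAA 28 bases before the start, and the Igfbp5 window holds none of these letters in a row. Igf1 has 1 CCAAT box on the reverse strand and Igfbp6 has 2 CCAAT boxes on the forward strand and a TTTATA at its far end. Igfbp7 has 4 GC boxes, 3 of them on the forward strand. Over the 32851 promoter windows of this length, 7.57% hold a TATA box match, 24.5% a CCAAT box match and 28.6% a GC box match. The CG dinucleotides number 4 in Igf1, 11 in Igfbp4, 5 in Igfbp5, 5 in Igfbp6 and 21 in Igfbp7, beside a median of 4 over all windows. None of the motif matches in the 9 members' windows overlapped another. The Igf1 window lies inside the span that GENCODE M21 gives to the gene, since that annotation begins at an earlier start. These matches are letters in a window and were not tied to any measurement here.

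In GENCODE M21 coordinates on GRCm38, Igf1 (ENSMUSG00000020053) spans chr10:87858265-87937042 on the plus strand. Igf1r (ENSMUSG00000005533) lies at chr7:67952827-68233668 on the plus strand and Igf2r (ENSMUSG00000023830) at chr17:12682406-12769664 on the minus strand. Igfbp2 (ENSMUSG00000039323, chr1:72824503-72852474, plus) and Igfbp5 (ENSMUSG00000026185, chr1:72857932-72874884, minus) are neighbours that face each other with 5.457 kb between their ends. Igfbp3 (ENSMUSG00000020427, chr11:7206086-7213923, minus) lies 3.539 kb from Igfbp1. Igfbp4 (ENSMUSG00000017493) lies further along at chr11:99041244-99054392 (plus), Igfbp6 (ENSMUSG00000023046) at chr15:102144362-102149511 (plus) and Igfbp7 (ENSMUSG00000036256) at chr5:77349240-77408041 (minus). All 9 are annotated as protein coding.

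Levels are given in CPM, the UMIs of a gene summed over the cells of a class in 1 library, per 1000000 UMIs of those cells. Series of 4 values follow the order unamputated, 12, 17 and 28 dpa, and a class is left out of a library in which it had under 50 cells. Igf1 was highest in fibroblast-like cells, at 1141, 223, 666 and 373 CPM. Tenocyte-like cells, named from tendon markers such as Scx and Tnmd, came next at 373, 211, 266 and 185 CPM. The ranges of these 2 classes overlapped across libraries, and the unamputated fibroblast-like value stood above every tenocyte-like one. Vascular endothelial-like cells held Igf1 at 150.5, 93.8, 143 and 83.4 CPM, and lymphatic endothelial-like cells at 121 CPM unamputated and 128 CPM at 12 dpa. Osteoblast-like cells held 193 CPM unamputated, 93.7 CPM at 17 dpa and 52.5 CPM at 28 dpa, and had too few cells at 12 dpa. Macrophage-like cells held 29.0, 23.8, 90.7 and 59.0 CPM. Basal keratinocyte-like cells held 0.950, 2.54, 4.75 and 4.14 CPM.

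**Figure D1:**
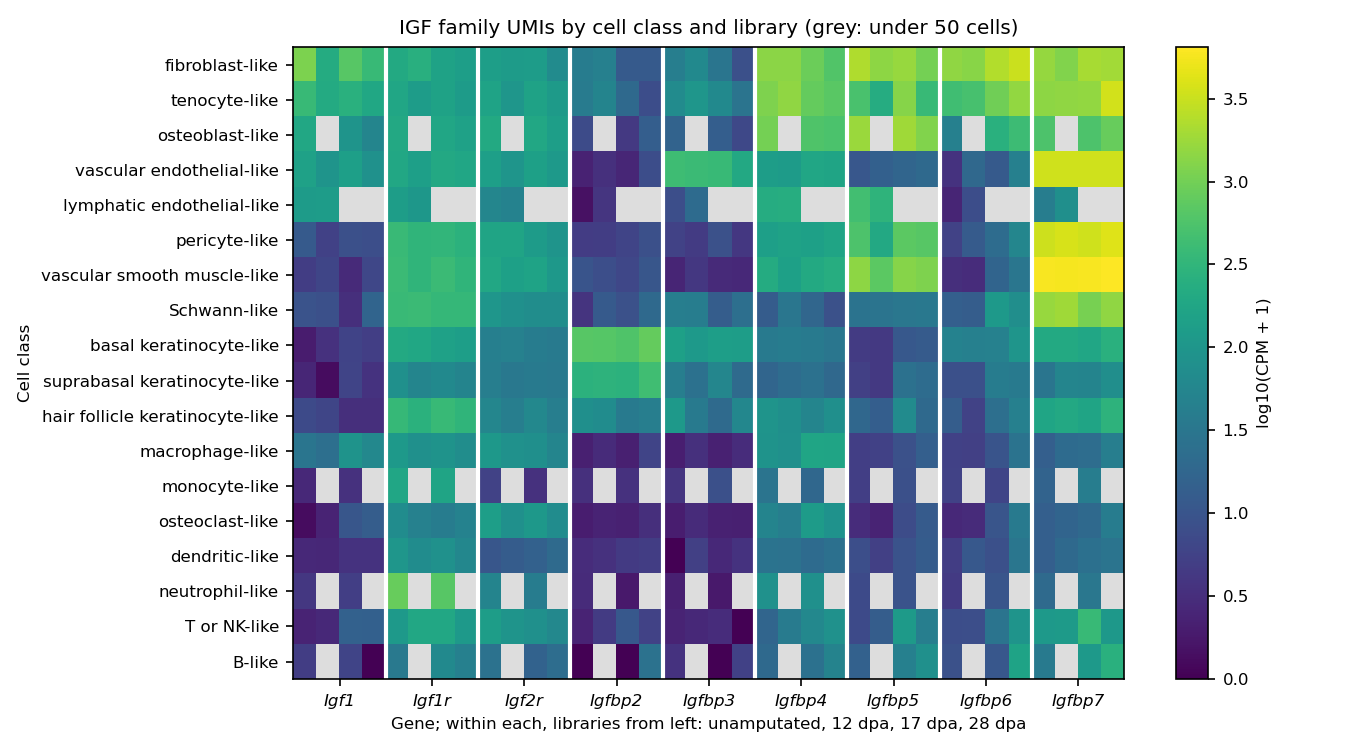
Level of each of the 9 genes in 18 marker-named classes, as log10 of CPM + 1 (colour). Each gene's block has 4 columns, from left to right unamputated, 12, 17 and 28 dpa, and grey marks a class with under 50 cells in that library. Igf1 is brightest in fibroblast-like cells, Igfbp2 in basal keratinocyte-like cells, Igfbp3 in vascular endothelial-like cells and Igfbp7 in vascular smooth muscle-like cells.

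The receptor gene Igf1r was present in every class, from 33.7 CPM in unamputated B-like cells upwards. Its highest class was neutrophil-like cells, at 852 CPM unamputated and 664 CPM at 17 dpa, the libraries in which that class had at least 50 cells. The next classes were Schwann-like cells (379, 401, 344 and 340.1 CPM), vascular smooth muscle-like cells (399, 315, 399.8 and 316 CPM), hair follicle keratinocyte-like cells (356, 271, 364 and 307 CPM) and pericyte-like cells (378, 307, 324 and 281 CPM). The neutrophil-like values did not overlap those of any of these 4 classes, and the 4 overlapped one another in order. Fibroblast-like cells lay lower, at 202, 255, 156 and 136 CPM, and osteoclast-like cells, at 69.6, 46.0, 38.3 and 48.5 CPM, were among the lowest. After every cell was thinned to 2000 UMIs, 69.6% and 62.7% of neutrophil-like cells had a UMI of Igf1r, beside 11.8% and 12.8% of osteoclast-like cells in the same libraries. An unnamed cluster of shallow cells held Igf1r at 1756, 1360.2, 1307 and 953 CPM, with 604, 280, 282 and 182 cells. Its best-scoring class was neutrophil, and 5 markers of the neutrophil list counted as detected in it. The cluster stayed unnamed because its leading genes held more markers of the mast cell list than of the neutrophil list. Those leading genes included Ccrl2, Slc7a11, Il1b and Hdc, and none was on the neutrophil list used here. The naming therefore does not show that these cells were not neutrophils. With each cell named alone, neutrophil-like cells went from 444, 0, 176 and 0 to 881, 183, 369 and 109, and at Leiden resolution 2 to 1007, 211, 418 and 179. Neutrophil-like cells ranked first for Igf1r in all 8 alternatives with a ranking.

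The other receptor gene, Igf2r, was spread over the stromal and vascular classes. Osteoblast-like cells held 206, 189 and 134 CPM at the unamputated, 17 and 28 dpa stages, and vascular smooth muscle-like cells 195, 147, 159 and 106 CPM. Pericyte-like, tenocyte-like, vascular endothelial-like and fibroblast-like cells followed, each overlapping its neighbour in the order. Dendritic-like cells held far less, at 9.58, 11.8, 14.5 and 19.6 CPM. The Igf2r locus overlaps the antisense RNA gene Airn, and the strand setting of the counting is not given in the sources used here, so reads of these genes cannot be told apart.

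The highest levels of Igfbp2 were in the epidermis. Basal keratinocyte-like cells held 661, 629, 580.2 and 811 CPM, suprabasal keratinocyte-like cells 280.3, 291, 276 and 431 CPM, and hair follicle keratinocyte-like cells 79.1, 71.2, 36.1 and 41.5 CPM. These 3 classes did not overlap. Tenocyte-like cells held 38.1, 51.3, 18.8 and 6.94 CPM, overlapping the hair follicle range, and gave 28.1% of the Igfbp2 UMIs at 12 dpa. Basal cells supplied between 46.0% and 67.3% of all Igfbp2 UMIs in a library. Between 54.8% and 70.1% of thinned basal cells had a UMI of Igfbp2, beside between 0.0999% and 1.36% of macrophage-like cells.

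Igfbp3, which encodes the main circulating carrier of IGFs, was highest in vascular endothelial-like cells at 430.0, 400.2, 363 and 202 CPM. Basal keratinocyte-like cells held 148, 112, 134 and 132 CPM and did not overlap the endothelial values. Within the endothelial class, cluster 7 held 661, 539.9, 574 and 351 CPM, whereas cluster 6, led by the venous adhesion genes Selp and Sele, held 44.7, 44.7, 97.4 and 39.2 CPM. Lymphatic endothelial-like cells held 7.32 CPM unamputated and 20.4 CPM at 12 dpa. Vascular endothelial-like cells gave 59.2%, 40.2%, 39.4% and 25.6% of the Igfbp3 UMIs of the libraries. Tenocyte-like cells gave 43.0% at 12 dpa and basal keratinocyte-like cells 42.9% at 28 dpa, each more than the endothelial share there. Igfbp3 was left out of the clustering, and the difference between these clusters was not tested.

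Igfbp4 was a connective tissue gene. Fibroblast-like cells held 1401, 1388, 893 and 602 CPM and tenocyte-like cells 1204, 1522, 825 and 680.4 CPM, with osteoblast-like cells at 1031, 576 and 532 CPM in the libraries that had them. Which of these classes ranked first depended on the settings, since fibroblast-like cells came second in 3 of 8 alternatives. These 3 classes overlapped, and none reached down to lymphatic endothelial-like cells at 228.4 and 238 CPM. In suprabasal keratinocyte-like cells, between 2.81% and 4.84% of thinned cells had a UMI of Igfbp4, beside between 54.2% and 79.6% of fibroblast-like cells.

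Igfbp5, whose product binds bone mineral and matrix, was spread over mesenchymal classes. Osteoblast-like cells held 1751, 1876 and 1218 CPM without the 12 dpa library, and fibroblast-like cells 2244, 1439, 1679.7 and 1042 CPM. Vascular smooth muscle-like cells held 1449, 713, 1299 and 1201 CPM, tenocyte-like cells 527, 228.5, 1317 and 363 CPM, and pericyte-like cells 559.9, 198, 697 and 666 CPM. Each of these classes overlapped the next in the order, and osteoblast-like cells were not first in 4 of 8 alternatives. In vascular smooth muscle-like and pericyte-like cells the 12 dpa value was the lowest of the 4.

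Igfbp6 was mainly a fibroblast and tendon gene. Fibroblast-like cells held 1483, 1365, 2342 and 3225 CPM, and tenocyte-like cells 445, 507, 974 and 1574 CPM. Osteoblast-like cells held 44.9 CPM unamputated, 257 CPM at 17 dpa and 412 CPM at 28 dpa, and did not overlap the tenocyte-like range. Fibroblast-like cells ranked first in 7 of 8 alternatives and 3rd where each cell was named alone. Together, fibroblast-like and tenocyte-like cells gave most Igfbp6 UMIs of each library, with fibroblast-like cells supplying 70.7%, 33.9%, 84.0% and 88.2% and tenocyte-like cells 25.4%, 63.6%, 11.6% and 7.60%. Beside these shares of UMIs, fibroblast-like cells were 7.90%, 7.13%, 23.6% and 24.1% of the cells and tenocyte-like cells 7.28%, 26.0%, 6.73% and 4.19%. The split at 12 dpa also rests on how cells were named, since the 463 fibroblast-like and 1686 tenocyte-like cells became 219 and 1296 at Leiden resolution 2 and 1049 and 824 with each cell named alone.

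Igfbp7 had its highest levels in the vessel wall and was also well represented in connective tissue. Vascular smooth muscle-like cells held 5873, 5721, 5911 and 6471 CPM and did not overlap pericyte-like cells at 3328, 3753, 3473 and 4246 CPM. Vascular endothelial-like cells held 3376, 3383, 3421 and 3460.2 CPM, an even course across the libraries. Tenocyte-like cells held 1455, 1486, 1586 and 3599 CPM, the last above the endothelial value, and fibroblast-like cells 1622, 1218, 2045 and 1935 CPM. By UMIs, the largest share of Igfbp7 came from vascular endothelial-like cells in the unamputated library (30.5%), from tenocyte-like cells at 12 dpa (42.3%) and from fibroblast-like cells at 17 and 28 dpa (41.6% and 39.1%). Macrophage-like cells held 13.3, 20.8, 21.8 and 42.2 CPM.

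The main comparison asks how each level after amputation differed from that in unamputated digits, within fibroblast-like cells, the class with the highest mean Igf1, Igfbp4 and Igfbp6. The class was named from a marker list that holds Col1a1, Pdgfra and Dcn, so their levels describe the class and do not check its name. Col1a1 stood at 16682, 17198, 11734 and 6730 CPM, Pdgfra at 306, 229, 326 and 257 CPM and Dcn at 5830, 3283, 9555 and 8934 CPM. The class held 825, 463, 1874 and 2453 cells, with median UMIs per cell of 18336, 11502, 11680 and 8713. Ratios are given as log2 of CPM + 1 over that of the unamputated library, and a gene is counted as changed in size at 2-fold or more.

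**Figure D2:**
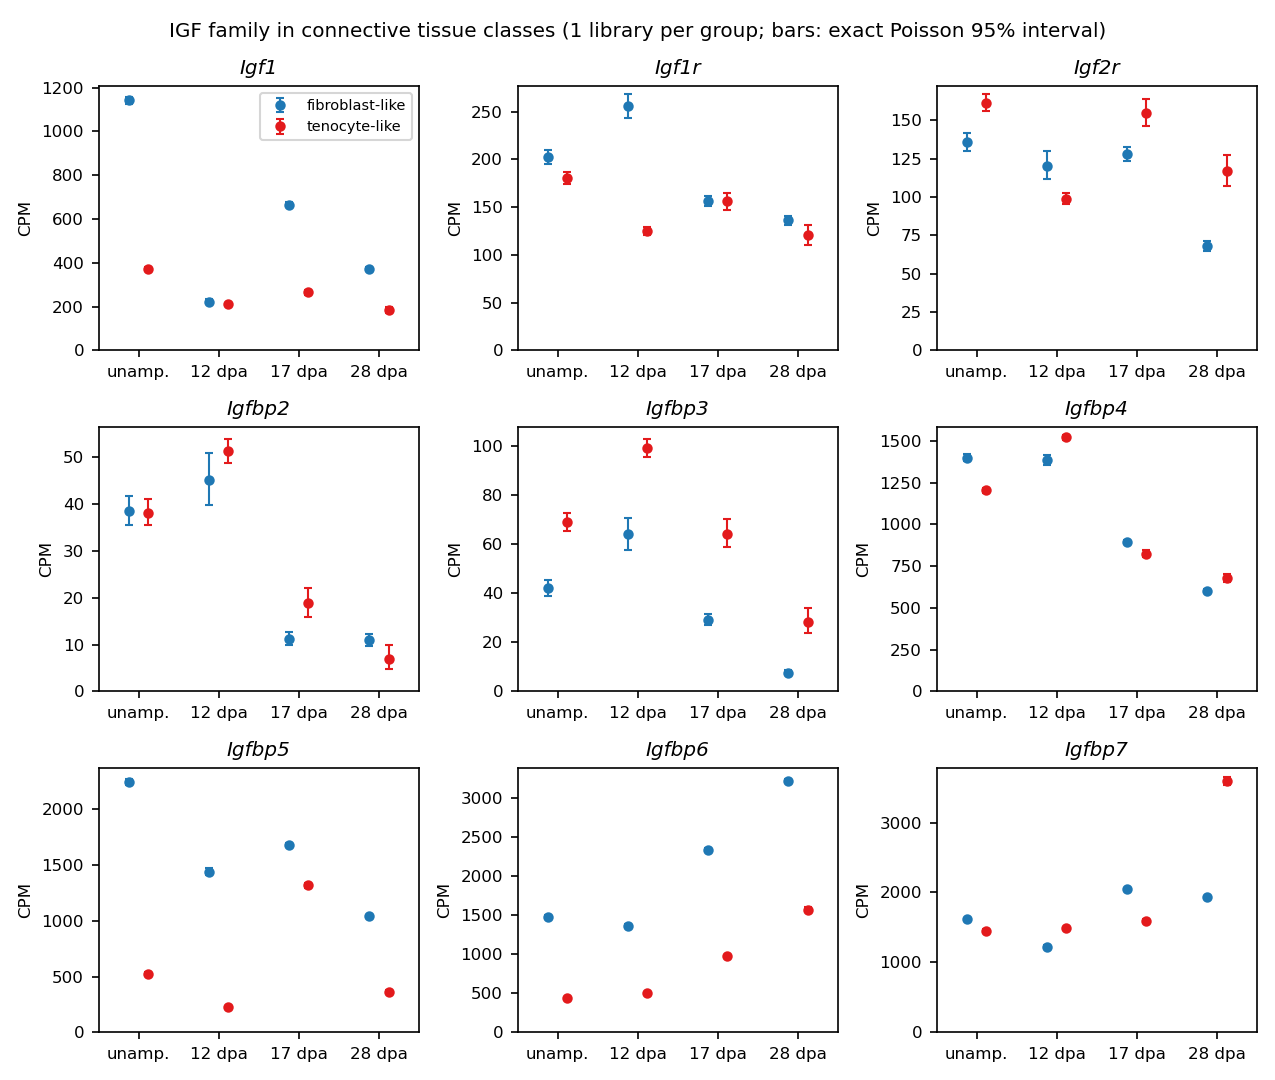
CPM of each of the 9 genes (vertical axis, from 0) by library (horizontal axis) in fibroblast-like cells (blue) and tenocyte-like cells (red), with exact Poisson 95% intervals as bars. Igf1 in fibroblast-like cells is highest in the unamputated library at 1141 CPM, and Igfbp6 is highest at 28 dpa in both classes.

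Igf1 was lower in fibroblast-like cells at every time after amputation. Its level was 1141 CPM unamputated (95% interval 1125 to 1158, from 18135 UMIs), 223 CPM at 12 dpa (211 to 236), 666 CPM at 17 dpa (655 to 676) and 373 CPM at 28 dpa (365 to 380.4). These intervals did not overlap one another. The log2 ratios were -2.35 at 12 dpa, or 5.09-fold lower, -0.78 at 17 dpa, or 1.71-fold lower, and -1.61 at 28 dpa, or 3.06-fold lower. After thinning, 56.3% (52.8 to 59.8), 27.8% (23.7 to 32.2), 47.8% (45.5 to 50.1) and 38.4% (36.4 to 40.4) of these cells had a UMI of Igf1. The unthinned shares were 80.5%, 58.7%, 73.9% and 57.5%, and the thinned share in basal keratinocyte-like cells was at most 0.772%. For the class as a whole, the course therefore went down, partly back up at 17 dpa, and down again, in levels and in shares of cells.

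The fall at 12 and 28 dpa was present in more than 1 kind of fibroblast-like cell, but the levels differed greatly between them. Cluster 12, led by C4b and Gdf10, held most Igf1 at 2564, 536, 1093 and 1121 CPM. Cluster 16, led by Pi16 and Clec3b, held 554, 187, 566 and 240.4 CPM. Cluster 20, led by Itih5 and Foxd1, held 387, 152, 306 and 138 CPM, and cluster 11, led by Prss35 and Crabp1, 298, 233 and 158 CPM in the libraries with enough cells. The make-up of the class moved as well: cluster 11 gave 210 of the 463 cells at 12 dpa and cluster 16 gave 1590 of the 2453 cells at 28 dpa. Giving equal weight to clusters 12, 16 and 20, each with at least 30 cells in every library, the log2 ratio of Igf1 was -2.00 at 12 dpa and -1.22 at 28 dpa. Clusters 12 and 20 had 30 cells each at 12 dpa, so that value rests on few cells. Under all 14 alternatives, the log2 ratio of Igf1 at 12 dpa stayed between -2.81 and -1.76 and at 28 dpa between -1.75 and -1.07.

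**Figure D3:**
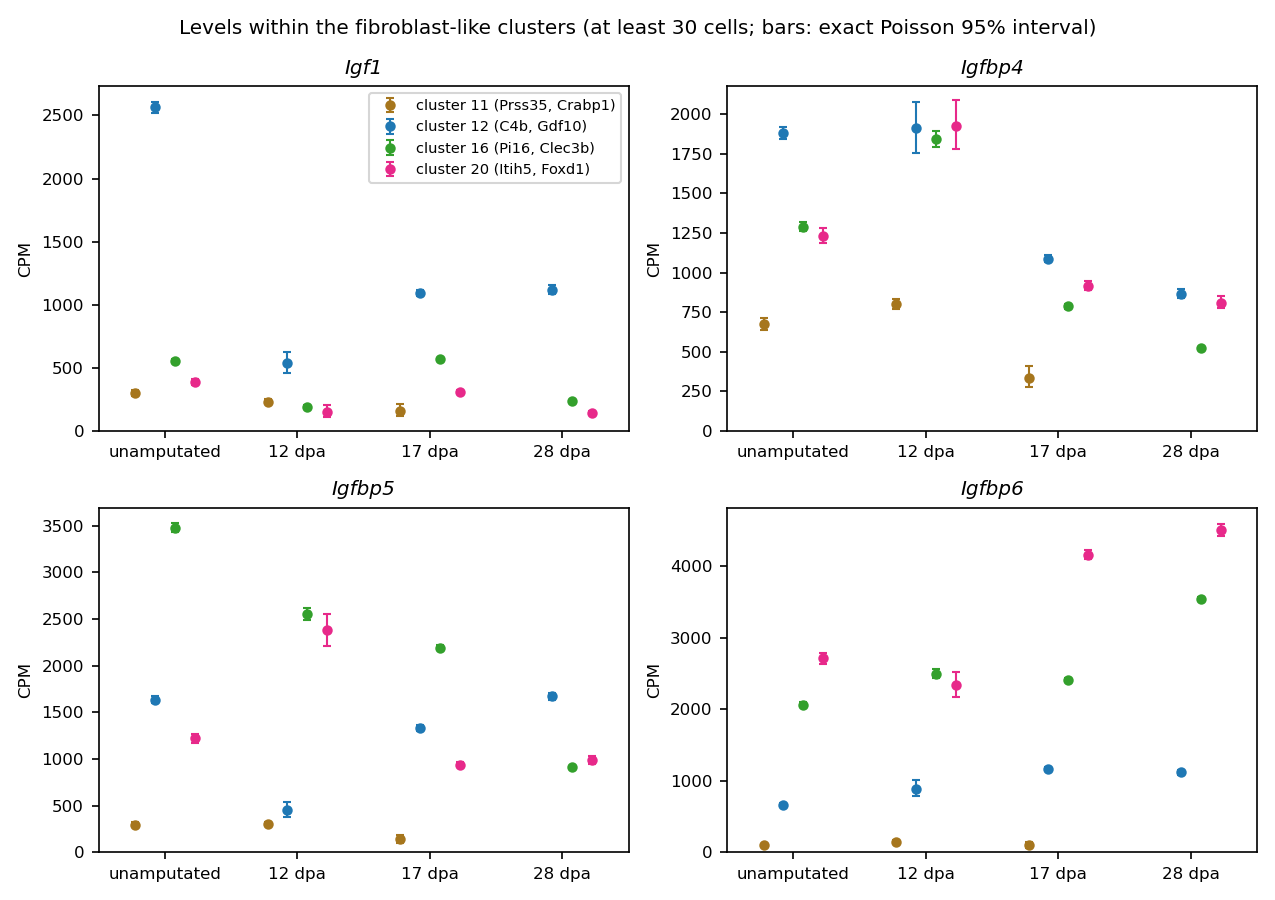
CPM (vertical axis, from 0) of Igf1, Igfbp4, Igfbp5 and Igfbp6 by library (horizontal axis) in the 4 clusters of fibroblast-like cells, shown where a cluster had at least 30 cells, with exact Poisson 95% intervals. Cluster 12 is highest for Igf1 in each library, and cluster 20 reaches 4500 CPM of Igfbp6 at 28 dpa.

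Igfbp6 went the other way. Its level in fibroblast-like cells was 1483 CPM unamputated (1464 to 1502), 1365 CPM at 12 dpa (1335 to 1395), 2342 CPM at 17 dpa (2322 to 2361) and 3225 CPM at 28 dpa (3203 to 3248). The log2 ratio was -0.12 at 12 dpa, 0.66 at 17 dpa and 1.12 (1.10 to 1.14) at 28 dpa, which is 2.17-fold higher. Thinned cells with a UMI of Igfbp6 made up 69.0%, 53.4%, 81.2% and 88.7%, against 88.6%, 68.3%, 88.8% and 94.0% unthinned. Cluster 20 held 2708, 2342, 4154 and 4500 CPM and cluster 16 held 2064, 2496, 2411 and 3532 CPM, whereas cluster 12 held 667, 892, 1166 and 1118 CPM. The rise at 28 dpa missed 2-fold in 3 of the 14 alternatives, and giving the 3 clusters equal weight gave a log2 ratio of 0.75.

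The other binding proteins of fibroblast-like cells were mostly lower at 28 dpa. Igfbp4 went from 1401 to 1388, 893 and 602 CPM, with log2 ratios of -0.01, -0.65 and -1.22. Igfbp5 was 2244, 1439, 1679.7 and 1042 CPM, with ratios of -0.64, -0.42 and -1.11, the last of which fell under 2-fold in 7 of 14 alternatives. The Igfbp4 level at 28 dpa was below the unamputated one in clusters 12 (1883 to 867 CPM), 16 (1290.04 to 521 CPM) and 20 (1232 to 811 CPM). Igfbp5 differed by cluster: cluster 16 held 3478, 2551, 2192 and 917 CPM, whereas cluster 12 held 1636, 453, 1333 and 1669.6 CPM and so was close to its unamputated level at 28 dpa. Igfbp3 was low and fell from 42.2 to 7.56 CPM at 28 dpa, a ratio of -2.33, after 64.1 CPM at 12 dpa and 29.1 CPM at 17 dpa. Igfbp2 went from 38.5 CPM to 45.0, 11.1 and 10.9 CPM, and the last of these ratios reversed to 0.26 when the 3 clusters had equal weight. Among fibroblast-like clusters with at least 30 cells, both genes were highest in cluster 11, where Igfbp2 stood at 232 CPM unamputated and Igfbp3 at 152 CPM, and that cluster had 93 of the unamputated cells and 12 of those at 28 dpa. Igfbp7 moved by 0.25 at 28 dpa on the log2 scale and by -0.41 and 0.33 at the earlier times.

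The receptor genes moved less than the ligand in fibroblast-like cells. Igf1r was 202, 255, 156 and 136 CPM, with log2 ratios of 0.33, -0.37 and -0.57. Igf2r was 136, 120.4, 128 and 68.2 CPM, with a ratio of -0.98 at 28 dpa, just under 2-fold. Neither reached 2-fold at any time. Across classes at 28 dpa, Igf1r was lower than in the unamputated library in 13 of 15 and Igf2r in 14 of 15, while the median log2 ratio over all genes was also below 0 in each of these 15 classes, between -0.34 and -0.06.

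At 12 dpa, 1 of the 9 members was at least 2-fold lower in fibroblast-like cells and 0 were higher, beside 3.37% lower and 1.82% higher among all 10901 genes of at least 5 CPM. At 17 dpa, 1 was lower (Igfbp2) and 0 higher, beside 1.86% lower and 0.629% higher among 10803 genes. Its ratio of -1.70 fell under 2-fold with a stricter cell filter (-0.59), without doublet removal (-0.46), at Leiden resolution 2 (-0.76) and with equal cluster weights (-0.86). At 28 dpa, 5 were lower (Igf1, Igfbp2, Igfbp3, Igfbp4 and Igfbp5) and 1 was higher (Igfbp6), beside 7.49% lower and 2.51% higher among 10808 genes. The median log2 ratio of the members was -0.12, -0.42 and -1.11 at the 3 times, beside -0.03, -0.04 and -0.15 over all of these genes. With library scaling by trimmed means at 28 dpa, the background became 4.77% lower and 4.95% higher, and the members 4 lower and 1 higher, Igfbp5 then standing at -0.89. That scaling moved every ratio of this class at 28 dpa by 0.21 on the log2 scale. Marker genes of other classes were measured in the same cells. The summed level of 16 genes induced by tissue dissociation was 5212, 2532, 7507 and 5900 CPM, and it was lowest in the library with the lowest Igf1. Summed vascular endothelial markers were 742, 755, 1166 and 2420 CPM, summed macrophage markers 192, 197, 154 and 174 CPM, and summed tenocyte markers 831, 757, 876 and 672 CPM. Their part in the ratios was not tested.

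Tenocyte-like cells shared the direction of fibroblast-like cells for some members. Igfbp6 rose in level from 445 to 1574 CPM by 28 dpa, a log2 ratio of 1.82 or 3.53-fold, and the rise stayed at 2-fold or more in all 12 alternatives run for this class. Igfbp7, which moved little in fibroblast-like cells, went from 1455, 1486 and 1586 CPM to 3599 CPM at 28 dpa, a ratio of 1.31. Summed vascular endothelial markers in the same cells were 460.4, 372, 1051 and 1662 CPM, summed pericyte markers 249, 259, 289 and 449 CPM and summed vascular smooth muscle markers 972, 1718, 780.5 and 501 CPM, and their part in the Igfbp7 course was not tested. Igf1 had a ratio of -1.01 at 28 dpa, which reached 2-fold in 5 of 12 alternatives, and Igfbp2 and Igfbp3 had ratios of -2.30 and -1.25. Igfbp5 went down and up between libraries, at 527, 228.5, 1317 and 363 CPM. At 28 dpa, 2 members were at least 2-fold higher and 3 lower, beside 3.96% and 6.74% of all genes in this class, and at 17 dpa 2 were higher and 0 lower, beside 1.39% and 0.959%. At 12 dpa 0 were higher and 1, Igfbp5, was lower, beside 0.508% and 1.34%. The 12 dpa library had 1686 of these cells, 26.0% of its total, of which 95 fell in a cycling cluster with Igf1 at 79.4 CPM beside 223 CPM in the larger tenocyte-like cluster.

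Osteoblast-like cells were compared at 17 and 28 dpa, since 22 cells were recovered at 12 dpa. Igf1 had log2 ratios of -1.04 and -1.86, Igfbp6 of 2.49 and 3.17, and Igfbp4 of -0.84 and -0.95. At 17 dpa, 1 member was at least 2-fold higher and 1 lower, beside 1.98% and 3.49% of all genes. At 28 dpa, 1 was higher and 2 were lower (Igf1 and Igfbp3), beside 3.4% and 7.4%. Igfbp6 was thus higher after amputation in fibroblast-like, tenocyte-like and osteoblast-like cells at both 17 and 28 dpa. It was also higher in classes with low levels of it: pericyte-like cells held 4.66, 11.4, 20.9 and 55.7 CPM, vascular endothelial-like cells 2.61, 18.6, 10.8 and 45.2 CPM and macrophage-like cells 4.44, 4.31, 8.88 and 27.6 CPM. At 28 dpa it was at least 2-fold higher than in the unamputated library in 15 of the 15 classes compared. The library-wide level of Igfbp6 was 233, 318, 814 and 1132 CPM over the same libraries. With the lowest class level of each library subtracted from every class, 9 of the 15 classes stayed at 2-fold or more at 28 dpa. Macrophage-like cells were themselves the lowest class at 28 dpa, so the subtraction sets them to 0 there by construction and says nothing about their ratio of 2.39. The UMIs of Igfbp6 per 100 cells at 28 dpa were 13.9 in vascular smooth muscle-like, 21.2 in macrophage-like, 21.3 in dendritic-like, 23.4 in vascular endothelial-like, 25.2 in pericyte-like, 25.3 in T or NK-like, 27.9 in osteoclast-like, 36.0 in B-like, 37.4 in Schwann-like, 40.3 in suprabasal keratinocyte-like and 41.1 in hair follicle keratinocyte-like cells. In the unamputated library these classes had between 2.86 and 21.2. The remaining classes changed less in proportion or started higher. From the unamputated library to 28 dpa, fibroblast-like cells went from 2856 to 3216 UMIs per 100 cells and basal keratinocyte-like cells from 89.13 to 103.5. Tenocyte-like cells went from 1115 to 1596 and osteoblast-like cells from 93.85 to 292.2. A level per 1000000 UMIs is higher in shallower cells for the same number of UMIs per cell, so the subtraction is no test of free RNA, whose part in these low levels was not tested.

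Macrophage-like cells held little Igf1, but more of it at 17 and 28 dpa than in unamputated digits. They held 29.0, 23.8, 90.7 and 59.0 CPM, with log2 ratios of -0.27, 1.61 and 1.00, and the thinned shares with a UMI were 4.79%, 3.60%, 13.1% and 10.4%. Cluster 0, led by Ms4a7, stayed at 22.8, 20.3, 26.1 and 26.2 CPM. Cluster 1, led by F13a1, Folr2 and Lyve1, held 103, 113, 161 and 64.3 CPM and numbered 129, 45, 589 and 1628 cells, against 1465, 970, 670 and 265 cells in cluster 0. The class therefore changed its make-up between the 2 clusters as its Igf1 level changed. At 28 dpa, 3 of the 7 members with at least 5 CPM in macrophage-like cells were at least 2-fold higher (Igfbp5, Igfbp6 and Igfbp7) and 0 lower, beside 4.18% and 5.98% of all genes. With the lowest class level subtracted, the Igfbp5 call ended, at 0.08 instead of 1.50. At 17 dpa 1 was higher and 0 lower, beside 1.97% and 1.41%, and at 12 dpa 0 and 0, beside 1.04% and 1.21%.

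In vascular endothelial-like cells, Igfbp3 had log2 ratios of -0.10, -0.25 and -1.09, and Igf1 of -0.68, -0.08 and -0.84. The Igfbp3 ratio at 28 dpa missed 2-fold as a mean over cells (-0.78) and in thinned cells (-0.68). Neither of the main clusters was 2-fold lower, with cluster 7 at 661 and 351 CPM and cluster 6 at 44.7 and 39.2 CPM, and the cells of these clusters numbered 736 and 597 unamputated and 296 and 282 at 28 dpa. At 28 dpa 2 members were at least 2-fold higher there (Igfbp2 and Igfbp6) and 1 lower, beside 2.24% and 3.65% of all genes. The Igfbp2 ratio of 1.77 rested on 23 UMIs unamputated and 21 at 28 dpa, and it became -0.049 when no doublets were removed. At both 12 and 17 dpa 1 was higher, Igfbp6, and 0 lower, beside 0.863% and 0.806% at 12 dpa and 0.849% and 1.01% at 17 dpa. In pericyte-like cells Igfbp5 was lower at 12 dpa by a log2 ratio of -1.50 and stood at 0.32 and 0.25 afterwards. Cluster 17 of the pericyte-like cells held 1032, 607, 1207 and 1395 CPM of Igfbp5 and cluster 15 held 309, 139, 325 and 267 CPM, so both had their lowest value at 12 dpa. Vascular smooth muscle-like cells gave a ratio of -1.02 at 12 dpa. Basal keratinocyte-like cells kept Igfbp2 within a range of 580.2 to 811 CPM.

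**Figure D4:**
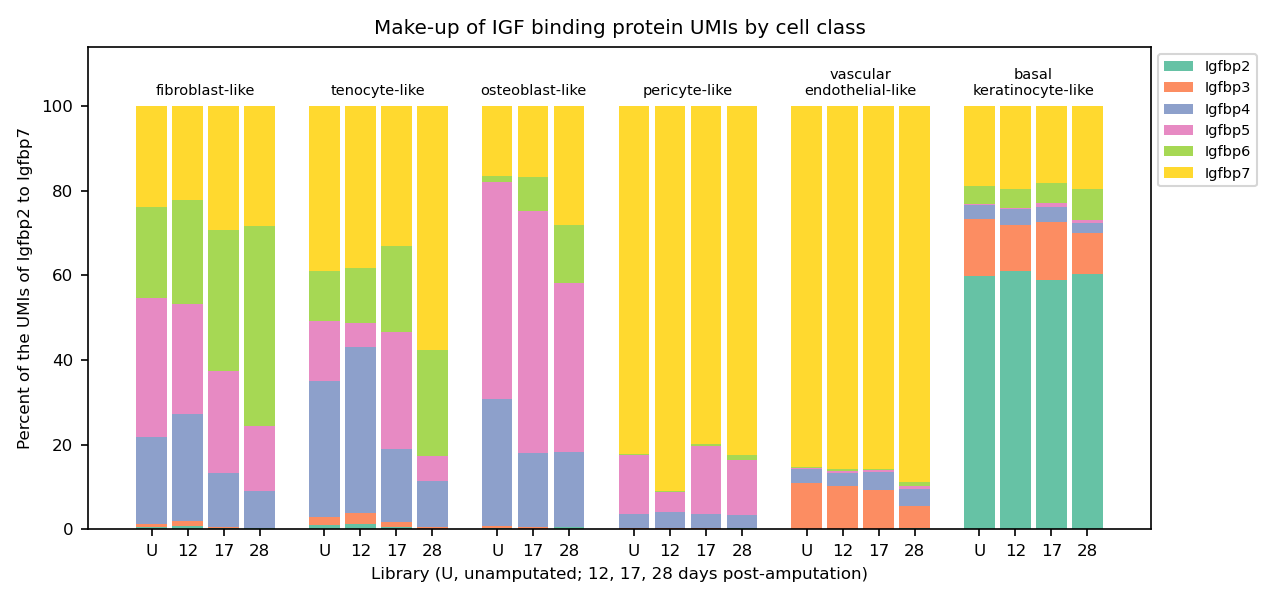
Percent of the UMIs of Igfbp2 to Igfbp7 that came from each gene (stacked bars, 0 to 100) by library, in 6 classes. In fibroblast-like cells the Igfbp6 portion is 21.7% in the unamputated library and 47.3% at 28 dpa.

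The mix of binding proteins in fibroblast-like cells differed between libraries. The summed level of Igfbp2 to Igfbp7 was 6830, 5519, 7000 and 6823 CPM, lowest at 12 dpa. Within that total, Igfbp6 made up 21.7%, 24.7%, 33.5% and 47.3%, Igfbp5 32.9%, 26.1%, 24.0% and 15.3%, and Igfbp4 20.5%, 25.1%, 12.8% and 8.83%. In tenocyte-like cells the total was 3739, 3895, 4786 and 6252 CPM, Igfbp7 made up 38.9%, 38.2%, 33.1% and 57.6%, and Igfbp4 went from 32.2% to 10.9% at 28 dpa. Vascular endothelial-like cells kept Igfbp7 at 85.4%, 85.8%, 85.7% and 88.8%, and basal keratinocyte-like cells kept Igfbp2 at 60.0%, 61.1%, 59.0% and 60.3%. The shares are of 3′ UMIs and are compared between libraries for 1 gene at a time, not between genes.

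**Figure D5:**
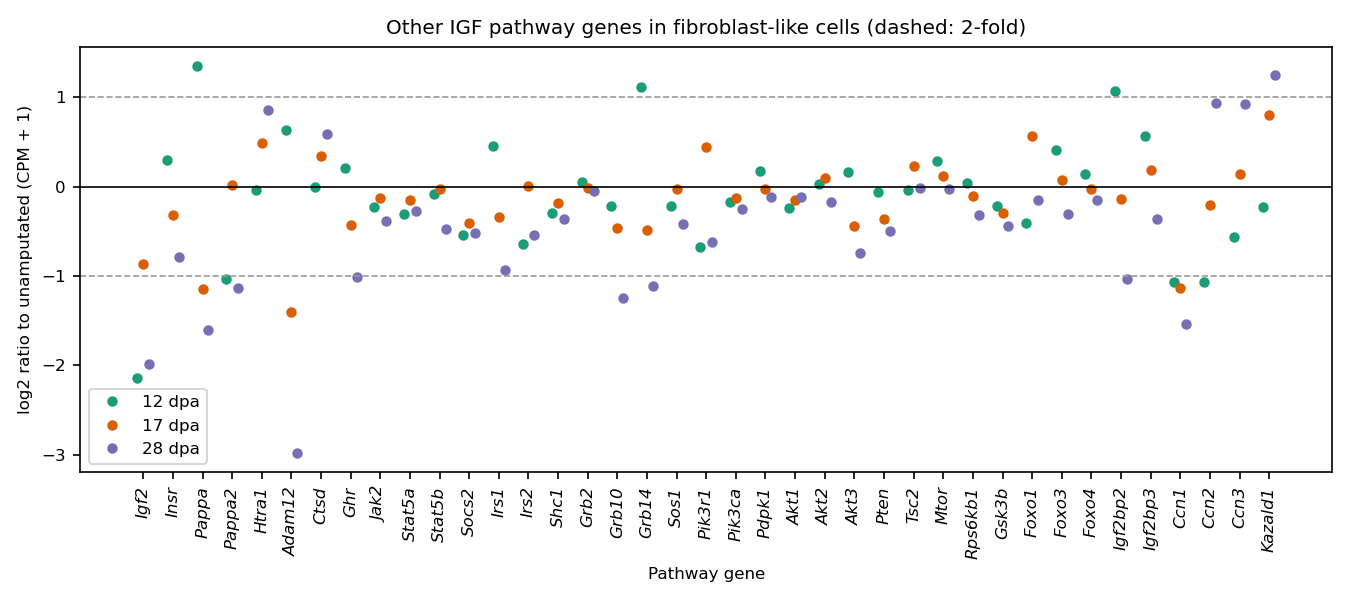
Log2 ratio of CPM + 1 to the unamputated library in fibroblast-like cells for the measured genes of the IGF pathway list, at 12, 17 and 28 dpa, with dashed lines at 2-fold. Adam12 is farthest below the lower line at 28 dpa, with a ratio of -2.98.

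Of 50 other genes of the pathway, 38 reached 5 CPM in fibroblast-like cells in each comparison. At 12 dpa 3 were at least 2-fold higher (Pappa, Grb14 and Igf2bp2) and 4 lower (Igf2, Pappa2, Ccn1 and Ccn2), at 17 dpa 0 and 3 (Pappa, Adam12 and Ccn1), and at 28 dpa 1 (Kazald1) and 9. The 3 higher calls at 12 dpa fell to 0 in several alternatives, among them a stricter cell filter, no doublet removal and equal cluster weights. The shares over all genes of at least 5 CPM were 1.82% higher and 3.37% lower at 12 dpa, 0.629% and 1.86% at 17 dpa, and 2.51% and 7.49% at 28 dpa. The median log2 ratio of the list was -0.05, -0.13 and -0.40, beside -0.03, -0.04 and -0.15 over all genes. The ligand gene Igf2 was scarce, at 16.9, 3.08, 8.87 and 3.52 CPM. Igfbp1 had 0 UMIs in fibroblast-like cells of all 4 libraries, which allows between 0.123 and 0.513 CPM by a limit of 3 counts per library. The insulin receptor gene Insr was 52.0, 64.3, 41.7 and 29.7 CPM, and Ghr, the growth hormone receptor that drives Igf1 in many tissues, was 324, 374, 242 and 161 CPM, a ratio of -1.01 at 28 dpa. Pappa, whose protease cleaves IGFBP-4 and IGFBP-5, was 39.5, 102, 17.4 and 12.3 CPM, with ratios of 1.35, -1.14 and -1.60. Adam12, a protease that also cleaves binding proteins, was 289, 449, 109 and 35.8 CPM. Among the relatives of the binding proteins, Ccn1 was 208, 98.7, 94.8 and 71.4 CPM and Ccn2 was 167, 79.2, 145 and 322 CPM. The adaptor Grb10, which restrains the receptor, was 269, 230.4, 195 and 113 CPM.

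The genes most like each member were ranked by Pearson's r of log2(CPM + 1) over 64 combinations of 18 classes and libraries, which share libraries and depth. These values are descriptions across classes. Igf1 was closest to Cthrc1 (0.84), Cfb (0.83) and Enpp3 (0.82). Igfbp4 was closest to Cped1 (0.86), Grin2a (0.83) and Lrch2 (0.83), and Igfbp5 to Sobp (0.93), Serping1 (0.93) and Tmem100 (0.92). Igfbp6 was closest to Spon2 (0.90), Scara5 (0.89) and Dcn (0.88). Igfbp7 came nearest to Dlc1 (0.93), Tm4sf1 (0.93) and Prss23 (0.92), Igfbp3 to Palmd (0.86), Arhgef28 (0.85) and Tll1 (0.84), and Igfbp2 to Slc25a48 (0.88), Fras1 (0.87) and Aknad1 (0.87). Igf2r came nearest to its antisense partner Airn (0.91), then Tmem115 (0.76) and Ifi27 (0.74), and Igf1r to Astn2 (0.76), B430010I23Rik (0.75) and Fbxo10 (0.74). The neighbours Igfbp2 and Igfbp5 gave -0.01. Among the members, Igf1 and Igfbp4 gave 0.81 and Igfbp4 and Igfbp5 0.75, whereas Igf1 and Igf1r gave 0.06.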

How the data were processed

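The authors' deposited files hold UMI counts per gene and cell barcode, 1 table per library. Per the submitters' processing notes they came from Cell Ranger 7.1.0 with the mm10 genome. The annotation, the handling of introns and the strand setting are not given in the sources used here. A barcode entered the work if it had 500 or more genes, 1000 or more UMIs and no more than 10% of UMIs from mitochondrial genes. Doublets were taken out by rank of the Scrublet score, at 0.8% per 1000 barcodes of a library. Cells were clustered jointly with scanpy 1.11.5 (Python 3.11.15; 2000 variable genes, 30 components, 15 neighbours, Leiden resolution 1) without the members, pathway, sex-linked or mitochondrial genes. A cluster was named where at least 3 markers of a class were in 25% of its cells, unless its 10 leading genes went against the name. The marker lists preceded the naming rule, which dates from after the clusters were known, and a different rule could move cells between classes. No cluster was named joint lining-like or chondrocyte-like.

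UMIs were summed per class and library. Levels carry exact Poisson 95% intervals, shares of cells exact Clopper-Pearson ones, and ratios a pseudocount of 1 CPM. With 1 library per group no test was run. Shares were computed on cells thinned to 2000 UMIs. edgeR 4.0.16 in R 4.3.3 gave trimmed-mean (TMM) scaling factors as an alternative only. The steps were also run on simulated counts. The text names all members, pathway genes at least 2-fold different at 20 CPM or more plus Igf2, Insr, Ghr and Pappa, and the 3 genes most like each member, beside markers and the leading genes that label clusters. Igfbp1 and the low pathway genes named beside their counts fall outside that rule and were chosen after their values were seen. The members and lists were chosen with earlier results of these data known. Coordinates come from GENCODE M21 and promoters from RefSeq, in which all 9 members were matched.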

Additional observations from a re-analysis of the deposited data

Results flagged for a closer look

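Some ratios to the unamputated library had opposite signs, each past 2-fold, in different classes or at different times. None of these differences was tested, since each group had 1 library.

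Igf1 at 17 dpa had a log2 ratio of 1.61 in macrophage-like cells and -1.04 in osteoblast-like cells. Igfbp3 at 12 dpa had 1.37 in lymphatic endothelial-like cells, from 15 and 29 UMIs, and -1.70 in hair follicle keratinocyte-like cells, from 796 and 67 UMIs. Igfbp5 in tenocyte-like cells was -1.20 at 12 dpa and 1.32 at 17 dpa.

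At 28 dpa, Igfbp2 had -1.73 in fibroblast-like cells and -2.30 in tenocyte-like cells, and it had 1.77 in vascular endothelial-like and 2.44 in Schwann-like cells. In osteoblast-like cells it had 0.89, which is under 2-fold. The fibroblast-like ratio changed sign with equal cluster weights, and the vascular endothelial-like one with no doublets removed. In B-like cells Igfbp2 had 4.79, from 6 UMIs in 100 cells beside 0 UMIs in 201 unamputated cells. Its level was 26.7 CPM at 28 dpa, and 3 counts, the limit that 0 UMIs allow, would be 3.88 CPM in the unamputated class. Igfbp4 had -1.22 in fibroblast-like cells, 2.26 in T or NK-like cells (18 UMIs) and 1.29 in B-like cells (11 UMIs). Igfbp5 had -1.11 in fibroblast-like cells, 2.04 in suprabasal keratinocyte-like cells (115 UMIs), 2.56 in T or NK-like cells (9 UMIs) and 2.41 in B-like cells (18 UMIs). Free RNA in these sparse classes was not tested as a source.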

How the results depend on the processing

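No paired analysis was possible because each group held 1 library, and no library could be left out for the same reason. Of 1998 values under alternative settings for 162 ratios, 1354 stayed within counting error, 641 moved beyond it and 3 reversed. Reversal was looked for only in ratios at 2-fold or more, so a change of sign in a smaller ratio is counted as stayed or moved. Of 34 ratios at 2-fold or more, 31 kept their sign in every alternative and 15 also stayed at 2-fold or more. These counts cover fibroblast-like, tenocyte-like, vascular endothelial-like, pericyte-like, vascular smooth muscle-like and macrophage-like cells. Ratios of other classes, osteoblast-like cells among them, are not in these counts. The class with the highest mean level stayed first in all 8 alternatives with a ranking for 6 of 9 members, the exceptions being Igfbp4, Igfbp5 and Igfbp6. Equal cluster weights and the subtraction of the lowest class level were chosen after seeing the data, and the cause of the other shifts was not tested. In fibroblast-like cells at 12 dpa, 2 members were lower instead of 1 with a looser cell filter, with each cell named alone, with tenocyte-like cells pooled in and with equal cluster weights. At 17 dpa, 1 member was higher instead of 0 on pooling. At that time 0 were lower instead of 1 with a stricter filter, without doublet removal, at Leiden resolution 2 and with equal weights, and 2 with each cell named alone. At 28 dpa, 0 were higher instead of 1 without doublet removal, at Leiden resolution 2 and with equal weights, and 3 lower instead of 5 with equal weights. The reversed ratios, all at 28 dpa, were Igfbp2 in fibroblast-like cells (0.26, equal weights), Igfbp2 in vascular endothelial-like cells (-0.049, no doublets removed) and Igfbp6 in macrophage-like cells (-1.99, lowest class subtracted, which was macrophage-like cells themselves, so that value is fixed by construction). Pathway genes at least 2-fold higher at 12 dpa numbered between 0 and 3. Depth limits low members such as Igfbp2 and Igfbp3 in fibroblast-like cells, and the lymphoid classes.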
